A study of Homo sapiens with 8 samples.

Results

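The clustered protocadherins are adhesion genes that lie side by side on human chromosome 5 in an α, a β and a γ cluster. The members were taken by name: every protein-coding gene of GENCODE release 29 whose symbol starts with PCDHA, PCDHB, PCDHGA, PCDHGB or PCDHGC and that has a row in the count table. There were 53 of them among 58735 genes: 15 in the α cluster, 16 in the β cluster and 22 in the γ cluster, the last made up of 12 PCDHGA, 7 PCDHGB and 3 PCDHGC genes. RNA was sequenced from SRA01/04, a human lens epithelial line that grows continuously because it expresses the SV40 large T antigen. One group, shSmurf1, carried a short hairpin RNA that knocks down SMURF1, a HECT-type ubiquitin ligase of TGF-β and BMP signalling, and its genotype is given as Smurf1 knockdown. The other, shControl, carried a negative control hairpin, and its genotype is given as WT. Each group had 4 libraries named as biological replicates, and all 8 had received recombinant human TGF-β2 (20 ng/ml, 48 h), so no cells without TGF-β2 are compared here. The labels give no hairpin sequence and do not say whether a group came from 1 clone or from separate cultures. An effect of lower SMURF1 and any other difference between the knockdown and control cells therefore cannot be told apart, and the p-values rest on a spread between libraries that may be technical.

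Each α or γ gene has a large variable exon of its own, which encodes the extracellular cadherin domains, the transmembrane segment and the start of the cytoplasmic tail, and is spliced to constant exons that all genes of that cluster share. The β genes have no constant exons and are each a single coding exon. In neurons, each cell uses its own small choice of variable promoters, and the proteins bind like proteins on the neighbouring membrane, so that a neuron can tell its own branches from those of others. The C-type genes (PCDHAC1, PCDHAC2, PCDHGC3, PCDHGC4 and PCDHGC5) are less bound by this choice, and PCDHGC3 is known to be broadly expressed outside the nervous system. Most of the variable promoters carry a conserved sequence element with the core CGCT that is bound by CTCF, an insulator protein that, with cohesin, loops promoters to distant enhancers.

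The promoter element is what most members share in sequence outside their coding exons, so it is printed here for some of the members whose expression is described below. Sequences are RefSeq promoters (GRCh38.p14, plus strand), each 30 bases long and all upstream of the RefSeq start of the gene (which can differ from the GENCODE start), with CGCT in capitals.
PCDHA4 (chr5:140806981-140807010): gagccacatgatgtCGCTctttaccacaaa
PCDHA10 (chr5:140855843-140855872): aagccaccggatgtCGCTgtcgtccacaaa
PCDHA12 (chr5:140875246-140875275): cagtcacatgatgtCGCTctacactcagaa
PCDHB2 (chr5:141094546-141094575): gagacgcggggtggCGCTgcagccttagaa
PCDHB4 (chr5:141121725-141121754): aagacgcagggtggCGCTgcaggctaagtt
PCDHB9 (chr5:141187076-141187105): aagccacaaggtggCGCTgcagactgaaga
PCDHB16 (chr5:141182312-141182341): agaacgcgtggtggCGCTgcaggttaagat
PCDHGA6 (chr5:141373837-141373866): aggactctaagcgtCGCTgttgaccaacct
PCDHGB5 (chr5:141397865-141397894): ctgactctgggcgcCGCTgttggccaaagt
PCDHGA11 (chr5:141420974-141421003): tgggctctaggcgcCGCTgctcaccaatca
PCDHGC3 (chr5:141475882-141475911): gggactctgtgtgcCGCTgtcggccaatga

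Promoters of 47 of the 53 members were matched by symbol, with 52 windows in all. PCDHA3, PCDHA13, PCDHB6, PCDHB11, PCDHGA12 and PCDHGC5 were not matched. A member is counted below if any of its windows holds the string, while shares of all promoter windows are counted per window. CGCT, searched on both strands of the 300-base window that runs from 250 bases before the start to 50 after it, was found in 12 of 13 α, 14 of 14 β and 20 of 20 γ genes, and in 70.008% of all 35116 promoter windows. On the coding strand, CGCT began between 90 and 35 bases before the start in 42 of 47 members, or 89.4%, and in 17.67% of all promoter windows. These bounds were set after the members' positions had been seen, so the first share is a description of the members only. Bases after the core were shared by some α and γ genes. A longer string starts with the core and sets some of the bases after it. It was found in 6 of 13 α, 0 of 14 β and 12 of 20 γ genes and in 0.31% of all windows. The bases before the core differed by cluster in the alignment above. TGTCGCT was found in 10 of 13 α, 1 of 14 β and 3 of 20 γ genes and in 1.757% of all windows. GGTGGCGCT was found in 0 of 13 α, 13 of 14 β and 0 of 20 γ genes and in 0.501% of all windows, and in PCDHB5, whose element is not printed because it runs past the start, its CGCT began 11 bases before the start. These longer strings, which overlap CGCT, were chosen after the sequences had been seen and were searched on both strands. CCCTC, the bases in the full name of CTCF (CCCTC-binding factor), was found on either strand in 3 of 13 α, 0 of 14 β and 11 of 20 γ genes. It was also found in 71.201% of all windows. It is not the CTCF-bound element described above, so its absence from β genes does not mean that they lack that element. PCDHGC3, PCDHGA11 and PCDHB5, among the most highly expressed members, and PCDHA10, among the low ones, hold the core CGCT, as do 70.008% of all windows. For PCDHGB7, also among the most highly expressed, no element was placed by the strings used to align the γ genes, so none is printed.

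Library totals ran from 14688651 to 16789144 counts in shSmurf1 and from 15000813 to 17030394 in shControl. SMURF1, on chromosome 7, was at 51.4, 50.4, 51.4 and 51.2 CPM (counts scaled to library size with TMM factors) in the shSmurf1 libraries and at 85.8, 93.3, 88.5 and 88.1 CPM in the shControl libraries, so the targeted gene was lower in every library labelled shSmurf1 (log2 fold change −0.80 ± 0.055 SE, edgeR adjusted p = 2.86e-09). The library shSmurf1 replicate 3 stood apart: its mean deviation from its group was 0.169 on the log2 scale, against 0.112 to 0.122 in the other shSmurf1 libraries and 0.102 to 0.109 in the shControl libraries. Of 17 lens genes, 6 were expressed enough to be tested, PAX6 among them at 34.0 ± 4.53 CPM in shSmurf1 and 33.3 ± 1.78 CPM in shControl (SD, n = 4 each), while SOX1 had no count in any library and CRYAA and FOXE3 had at most 3 counts in any library. The lens list summed to 371.5 to 415.6 CPM in shSmurf1 and to 460.4 to 468.2 CPM in shControl. Most of this was CDH2, at a mean of 298.8 CPM in shSmurf1 and 328.2 CPM in shControl and not called. GJA1 came next, at 44.85 CPM in shSmurf1 and 79.96 CPM in shControl. Of the 6 tested, GJA1 and SIX3 were lower and 0 higher, where 12.2% of all genes tested were lower and 10.3% higher. Of 10 neuronal genes 5 were tested, and DCX and ELAVL4 had no count. TUBB3 was higher (log2 fold change 0.99), and STMN2 (−2.11) and SYT1 (−0.32) were lower, against the same shares of all genes. The list summed to 32.66 to 33.69 CPM in shSmurf1 and to 38.76 to 41.34 CPM in shControl. Most of this was SYT1, at a mean of 19.75 CPM in shSmurf1 and 24.71 CPM in shControl. Whether these differences bear on the protocadherins was not tested.

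Protocadherin transcripts were unevenly spread over the clusters. Summed over all its members, the γ cluster gave 195.6 ± 11.06 CPM in shSmurf1 and 170.9 ± 12.05 CPM in shControl, the β cluster 141.9 ± 10.68 CPM in shSmurf1 and 115.6 ± 3.274 CPM in shControl, and the α cluster 9.676 ± 0.9722 CPM in shSmurf1 and 5.416 ± 0.825 CPM in shControl (mean ± SD, n = 4 each). These sums are of counted reads: the constant exons hold 2866 bases common to all α genes and 2181 bases common to all γ genes, and reads there appear not to have been counted to any gene. Of the 684 genes of at least 500 exon bases that have no base of their own, 587 had no count in any library and 681 stayed under 10 counts in each. The α and γ values therefore come from the bases that only 1 gene covers, 2011 to 10574 per α gene and 2038 to 5729 per γ gene. The β genes share no exon base with each other, but they are close copies in places. Of all stretches of 100 bases in a gene's own exon, 25.58% in PCDHB8 and 22.54% in PCDHB10 also occur elsewhere in the family, and 10 of the 16 β genes are above 5%, against 3 of 15 α and 5 of 22 γ genes, so reads there can be lost or split between genes.

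Levels per kilobase, the scale on which genes can be compared, are TMM-scaled CPM divided by the kilobases of exon that belong to no other gene. PCDHGC3, a C-type γ gene, was the highest of all members at 22.6 ± 2.17 CPM per kb in shSmurf1 and 18.9 ± 1.83 CPM per kb in shControl. It held 38 ± 1.76% of the summed per-kilobase level of the γ cluster in shSmurf1 and 36.0 ± 1.50% in shControl. Within the γ cluster, PCDHGB5 came next in both groups, with 7.58 ± 1.08 CPM per kb in shSmurf1 and 8.55 ± 0.376 CPM per kb in shControl. PCDHGB7 (6.68 ± 0.366 in shSmurf1 and 4.68 ± 0.413 CPM per kb in shControl) and PCDHGA11 (6.64 ± 0.445 in shSmurf1 and 4.88 ± 0.343 CPM per kb in shControl) lay within their spread of each other in both groups, and PCDHGA6 came after them in both. The other C-type γ genes were far below PCDHGC3: PCDHGC5 had 26 to 48 counts per library in shSmurf1 and 27 to 49 in shControl, and PCDHGC4 had 4 to 9 counts in shSmurf1 and 0 to 6 in shControl.

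In the β cluster, PCDHB5 led with 11.6 ± 1.05 CPM per kb in shSmurf1 and 8.87 ± 0.586 CPM per kb in shControl, followed by PCDHB2 at 9.63 ± 0.651 CPM per kb in shSmurf1 and 8.13 ± 0.576 CPM per kb in shControl. PCDHB10, PCDHB16 and PCDHB12 filled the next places in both groups, between 2.14 and 2.99 CPM per kb. The third place was held by PCDHB10 in shSmurf1 and by PCDHB16 in shControl. Each group's own top 3 genes together held 58.71% of the per-kilobase level of the cluster in shSmurf1 and 58.66% in shControl. PCDHB1, which lies apart from the other β genes at the start of the cluster, had 2 counts in 1 shSmurf1 library and none in the other shSmurf1 libraries, and none in shControl, where 0 counts over the 4 libraries allow up to 0.0468 CPM (3 counts, for counting error only). In the α cluster the highest gene, PCDHA12, reached only 0.526 ± 0.159 CPM per kb in shSmurf1 and 0.258 ± 0.0480 CPM per kb in shControl. PCDHAC2, the C-type gene nearest to the constant exons, was second at 0.250 ± 0.103 CPM per kb in shSmurf1 and 0.184 ± 0.111 CPM per kb in shControl. It lay within the spread of PCDHA10 in both groups and of PCDHA11 in shSmurf1. In shControl PCDHA11 was lower, at 0.0605 ± 0.0483 CPM per kb. PCDHA13 had 1 count in each group. For PCDHA4 and PCDHA10 the annotation lists 10574 and 9555 bases of their own, long alternative exons included, so their levels per kilobase are low for their counts.

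**Figure D1:**
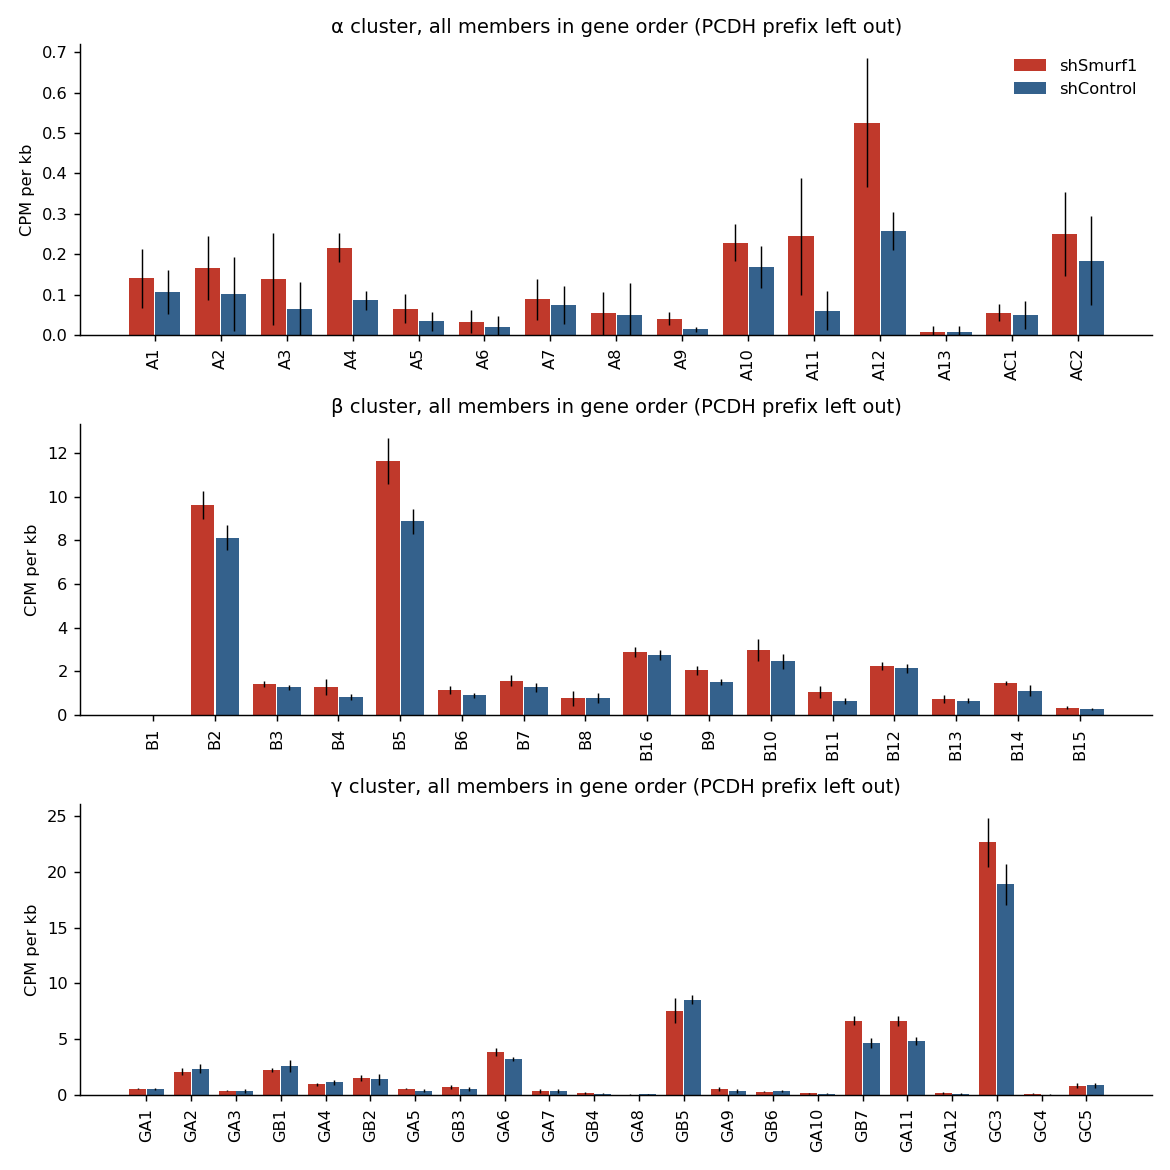
Mean level of all 53 members in gene order, as TMM-scaled CPM per kilobase of exon that belongs to no other gene, with a panel and a linear axis of its own for each cluster (red bars shSmurf1, blue bars shControl, error bars SD of 4 libraries). PCDHGC3 stands at 22.6 and 18.9 CPM per kb in shSmurf1 and shControl, PCDHB5 at 11.6 and 8.87, and no α gene passes 0.526.

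The comparison of shSmurf1 with shControl asks how members differ between the lines under TGF-β2. Of the 53 members, 37 had enough counts to be tested: 4 α, 15 β and 18 γ genes. Higher in shSmurf1 were 11 of these 37, and 0 were lower (edgeR quasi-likelihood test, Benjamini-Hochberg adjusted p under 0.05 over all 15647 genes tested). Of all genes tested, 10.3% were higher and 12.2% lower by the same rule. DESeq2 and limma-voom also called 0 members lower, where 12.5% and 12.4% of all genes tested were lower. At an unadjusted p under 0.05 in edgeR 0 members were lower. The share of all genes lower at that threshold was not counted. The median log2 fold change was 0.26 over the 37 members and 0.01 over all genes tested. By cluster, 2 of 4 α, 5 of 15 β and 4 of 18 γ genes were higher. The filter on low counts asks for 0.636 CPM in 4 libraries, which PCDHA12 reached in all 4 shSmurf1 and in 0 shControl libraries and PCDHA4 and PCDHGA9 in all 4 shSmurf1 and in 3 shControl libraries. These 3 genes entered the test through shSmurf1, where both called α genes among them are high. The groups of PCDHGA9 overlap and it was not called (log2 fold change 0.40 ± 0.36, edgeR adjusted p = 0.474). With no filter on low counts, PCDHA4 was called (edgeR adjusted p = 0.00034) and PCDHA12 was not (0.125). Without these 3 genes, a count added after seeing the data, 9 of 34 members were higher, from 0 of 2 α, 5 of 15 β and 4 of 17 γ genes. The median log2 fold change was then 0.25. Groups did not overlap, with shSmurf1 above, in 7 of the 37 tested members, or 18.9%, and in 5 of the 34, or 14.7%, where 10.6% of all genes tested did so. The 7, all among the called members, were 2 α, 3 β and 2 γ genes.

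**Figure D2:**
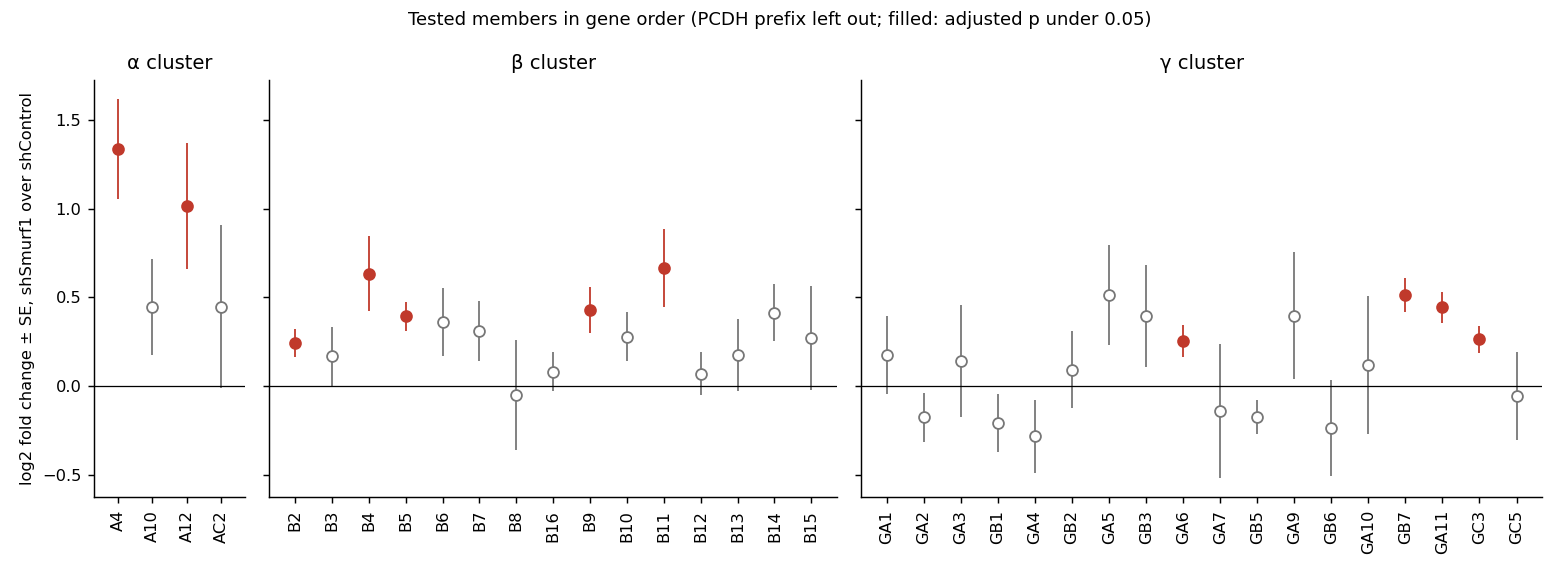
Log2 fold change of shSmurf1 over shControl with its SE for the 37 tested members in gene order along chromosome 5 (filled red points: adjusted p under 0.05; open grey points: not past the test). The filled points all lie above 0, from 0.24 for PCDHB2 to 1.34 for PCDHA4, while the γ cluster holds 7 open points below 0.

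In the γ cluster, PCDHGB7 and PCDHGA11, neighbours whose variable exons follow each other, rose in shSmurf1 with no overlap between the groups. PCDHGB7 (ENSG00000254122, GRCh38 chr5:141417645-141512979, plus strand) was at 19.7, 17.3, 18.3 and 19.1 CPM in shSmurf1 and at 13.6, 13.3, 13.9 and 11.4 CPM in shControl. Its lowest shSmurf1 library was above its highest shControl library, and the log2 fold change was 0.51 ± 0.095 (SE; edgeR adjusted p = 0.000515), or 1.43-fold. PCDHGA11 (ENSG00000253873, chr5:141421047-141512979) was at 25.7, 21.9, 24.7 and 24.1 CPM in shSmurf1 and at 18.4, 17.6, 18.9 and 16.02 CPM in shControl. Here too every shSmurf1 library was higher, with a log2 fold change of 0.44 ± 0.086 (edgeR adjusted p = 0.000803), or 1.36-fold. The pair kept its calls in all 17 other fits, at adjusted p values of at most 0.00381 for PCDHGB7 and 0.00575 for PCDHGA11.

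PCDHGC3 (ENSG00000240184, chr5:141475947-141512979) was at 75.5, 70.9, 65.5 and 82.1 CPM in shSmurf1 and at 55.0, 65.6, 67.1 and 57.5 CPM in shControl. The groups overlap through shSmurf1 replicate 3, the lowest of its group, and the log2 fold change was 0.26 ± 0.076 (edgeR adjusted p = 0.0168), or 1.20-fold. It did not pass without shSmurf1 replicate 1 or 4 (adjusted p = 0.0506 and 0.0717) or without shControl replicate 1 or 4 (0.0828 and 0.0703). PCDHGA6 (ENSG00000253731) was at 23.6, 23.0, 18.9 and 22.8 CPM in shSmurf1 and at 17.7, 19.8, 18.7 and 17.98 CPM in shControl. Replicate 3 of shSmurf1 again lies among the shControl values, and the log2 fold change of 0.26 ± 0.090 sat just inside the threshold (edgeR adjusted p = 0.0460). PCDHGA6 passed without shSmurf1 replicate 3 and did not pass without any other single library (adjusted p = 0.0563 without shControl replicate 2 to 0.135 without shSmurf1 replicate 1), nor with limma-voom (0.0515), with the replicate block (0.0679) or with no filter on low counts (0.0737).

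The other 14 tested γ genes did not pass, with 7 log2 fold changes above 0 and 7 below, from −0.28 ± 0.21 for PCDHGA4 to 0.51 ± 0.28 for PCDHGA5. PCDHGB5, second in level in the cluster, was at 17.9, 24.5, 19.3 and 19.4 CPM in shSmurf1 and at 21.4, 23.1, 23.0 and 23.8 CPM in shControl. Its shSmurf1 libraries except replicate 2 were below all shControl libraries, and its log2 fold change was −0.18 ± 0.095 (edgeR adjusted p = 0.209). It passed as lower without shSmurf1 replicate 2 (log2 fold change −0.28, adjusted p = 0.0363) and with each library's trend with GC content removed (−0.24, adjusted p = 0.0364). Of its 100-base stretches, 15.29% also occur elsewhere in the family. PCDHGB1 (−0.21 ± 0.16), PCDHGA2 (−0.18 ± 0.14) and PCDHGB2 (0.09 ± 0.22), the next highest per kilobase among the γ genes that did not pass, had overlapping groups. PCDHGB4, PCDHGA8, PCDHGA12 and PCDHGC4 were too low to be tested, with at most 14 counts in a library.

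In the β cluster, PCDHB5 (ENSG00000113209, chr5:141135218-141138625, plus strand), the highest β gene, rose. It was at 30.6, 37.6, 32.5 and 34.7 CPM in shSmurf1 and at 23.8, 27.6, 26.8 and 25.0 CPM in shControl. The groups did not overlap, the log2 fold change was 0.39 ± 0.082 (edgeR adjusted p = 0.00148), or 1.31-fold, and the call held in all 17 other fits (adjusted p at most 0.0098). PCDHB2 (ENSG00000112852, chr5:141094578-141098703) was at 33.2, 35.7, 30.8 and 35.4 CPM in shSmurf1 and at 30.1, 26.2, 30.3 and 27.4 CPM in shControl. The groups come within 1 CPM of each other without overlap, and the log2 fold change was 0.24 ± 0.078 (edgeR adjusted p = 0.0290).

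PCDHB9 (ENSG00000177839, chr5:141187127-141191541) was at 7.81, 9.20, 8.88 and 7.51 CPM in shSmurf1 and at 6.62, 5.39, 6.48 and 6.25 CPM in shControl, again without overlap (log2 fold change 0.43 ± 0.13, edgeR adjusted p = 0.0226). PCDHB4 (ENSG00000081818) was at 5.57, 6.38, 3.29 and 4.41 CPM in shSmurf1 and at 3.58, 2.90, 3.61 and 2.52 CPM in shControl. Its groups overlap through shSmurf1 replicate 3, and its log2 fold change was 0.63 ± 0.21 (edgeR adjusted p = 0.0340). PCDHB11 (ENSG00000197479) was at 3.33, 5.91, 4.14 and 3.75 CPM in shSmurf1 and at 2.09, 2.36, 3.36 and 2.96 CPM in shControl. The groups touch at shSmurf1 replicate 1 and shControl replicate 3, and the log2 fold change was 0.66 ± 0.22 (edgeR adjusted p = 0.0332). Repeated 100-base stretches made up 14.02% of PCDHB2 and 10.75% of PCDHB9, against 2.47% of PCDHB5.

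Calls in the β cluster, other than that of PCDHB5, depended on single libraries. In the fit of all 8 libraries 5 β genes were higher, where 10.3% of all genes tested were. Without shSmurf1 replicate 2 (7.98% of all genes higher) or shControl replicate 2 (7.64%), 1 was higher. There were 2 without shControl replicate 4 (7.88%) and 3 without shSmurf1 replicate 1 (7.83%). The other fits that left out a library gave 4 or 5, where 7.77% to 16.4% of all genes were higher. PCDHB2 lost its call without shSmurf1 replicate 1, 2 or 4 or shControl replicate 2 or 4 (adjusted p = 0.0536 to 0.108), PCDHB4 without replicate 1 or 2 of shSmurf1 or 2 or 4 of shControl (0.091 to 0.139), PCDHB9 without replicate 2 of either group (0.0735 and 0.0764) and PCDHB11 without shSmurf1 replicate 2 or shControl replicate 1, 2 or 4 (0.052 to 0.156). PCDHB2 also fell short with the replicate block (0.0533) and PCDHB4 with limma-voom (0.054).

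Of the 10 tested β genes that did not pass, 9 had log2 fold changes above 0, up to 0.41 ± 0.16 for PCDHB14 (edgeR adjusted p = 0.0730), and PCDHB8 was at −0.05 ± 0.31. PCDHB14 passed with the GC trend removed (adjusted p = 0.0319) and without shControl replicate 1 (0.0283). PCDHB10 was at 8.71, 12.2, 8.94 and 8.88 CPM in shSmurf1 and at 7.22, 8.83, 6.79 and 9.08 CPM in shControl, with shSmurf1 replicate 2 apart from the rest (log2 fold change 0.28 ± 0.14, edgeR adjusted p = 0.171). PCDHB16 (0.08 ± 0.11), PCDHB12 (0.07 ± 0.12) and PCDHB7 (0.31 ± 0.17) had overlapping groups. As a whole the β cluster summed to 133.6, 156.8, 134.8 and 142.4 CPM in shSmurf1 and to 113.4, 116.5, 119.9 and 112.7 CPM in shControl. These sums did not overlap, and the shSmurf1 mean was 122.7% of the shControl mean. The β sum was not tested, and the called β genes are part of it.

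In the α cluster levels were low, and PCDHA4 and PCDHA12, which entered the test through shSmurf1, were higher there. PCDHA4 (ENSG00000204967, chr5:140806929-141012344, plus strand) was at 1.86, 2.69, 2.10 and 2.50 CPM in shSmurf1 and at 0.597, 1.21, 0.872 and 0.946 CPM in shControl, from 29, 40, 32 and 42 counts in shSmurf1 and 10, 18, 14 and 15 counts in shControl. The groups were well apart, with a log2 fold change of 1.34 ± 0.28 (edgeR adjusted p = 0.00164), or 2.53-fold, and the call held in all 17 other fits (adjusted p at most 0.00955). PCDHA12 (ENSG00000251664, chr5:140875302-141012344) was at 0.833, 1.48, 0.789 and 1.13 CPM in shSmurf1 and at 0.477, 0.404, 0.623 and 0.568 CPM in shControl, from at most 22 counts in a library. Groups did not overlap and the log2 fold change was 1.01 ± 0.36 (edgeR adjusted p = 0.0468). PCDHA12 passed without shSmurf1 replicate 3 and did not pass without any other single library (adjusted p = 0.0554 without shSmurf1 replicate 1 to 0.169 without shSmurf1 replicate 2), nor with DESeq2 (0.0799), limma-voom (0.0588), no filter on low counts (0.125) or the replicate block (0.0830), which left 1 α gene higher in each of those fits but that with no filter.

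PCDHA10 (0.45 ± 0.27, edgeR adjusted p = 0.264) and PCDHAC2 (0.45 ± 0.46, edgeR adjusted p = 0.538) were tested and did not pass. Among the 11 α genes too low for the test, PCDHA11 had 6, 22, 8 and 15 counts in shSmurf1 and 3, 2, 7 and 1 counts in shControl. Its groups overlap at shSmurf1 replicate 1 and shControl replicate 3, and it passed in the fit with no filter on low counts (log2 fold change 1.96 ± 0.57, edgeR adjusted p = 0.00815), where 4.87% of 33093 genes were higher. PCDHA2 had 3, 10, 8 and 6 counts in shSmurf1 and 2, 3, 10 and 2 counts in shControl. The cluster as a whole, tested or not, gave 149, 165, 139 and 150 counts in shSmurf1 and 71, 81, 96 and 95 counts in shControl. On the scaled level this was 9.543, 11.09, 9.138 and 8.939 CPM in shSmurf1 and 4.236, 5.459, 5.978 and 5.993 CPM in shControl, so that the lowest shSmurf1 library was above the highest shControl library and the shSmurf1 mean was 178.6% of the shControl mean. No test was made of this sum, and PCDHA4 and PCDHA12 are part of it.

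**Figure D3:**
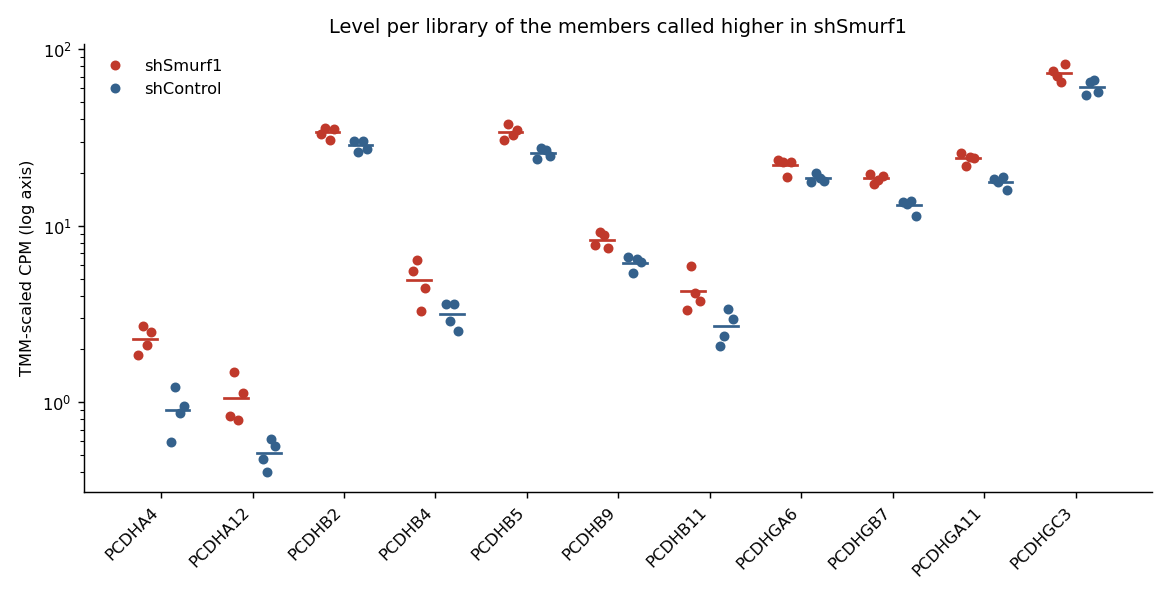
TMM-scaled CPM on a log axis in each library for the 11 members higher in shSmurf1 (red points and mean lines shSmurf1, at left; blue shControl, at right; 4 libraries each). The groups are apart for PCDHA4, PCDHA12, PCDHB2, PCDHB5, PCDHB9, PCDHGB7 and PCDHGA11 and overlap for PCDHB4, PCDHB11, PCDHGA6 and PCDHGC3.

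The γ cluster summed to 200.5, 195.4, 180.4 and 206.2 CPM in shSmurf1 and to 159.4, 173.7, 186.6 and 163.9 CPM in shControl. Here the groups overlap, since shControl replicate 3 lies above shSmurf1 replicate 3, and the shSmurf1 mean was 114.5% of the shControl mean. Within the γ cluster, the share of the per-kilobase level held by PCDHGB7 was 11.3 ± 0.697% in shSmurf1 and 8.97 ± 0.778% in shControl, and that of PCDHGB5 was 12.8 ± 1.92% in shSmurf1 and 16.4 ± 1.13% in shControl. The leading 5 γ genes and the leading pair of β genes were otherwise the same genes in both groups, with PCDHGB7 and PCDHGA11 trading the third and the fourth place.

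**Figure D4:**
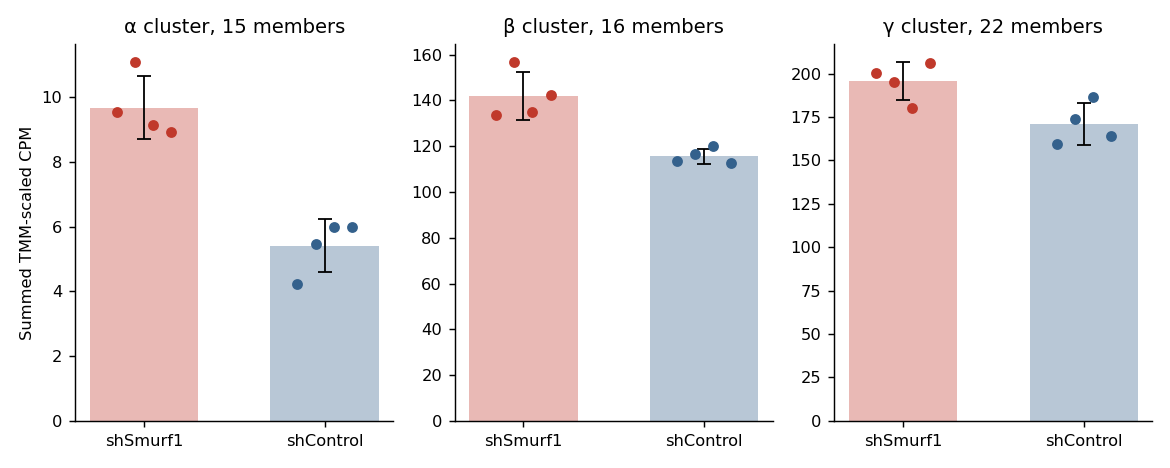
Summed TMM-scaled CPM of all members of each cluster (bars: mean of 4 libraries; error bars: SD; points: libraries; shSmurf1 left, shControl right; linear axes from 0 with a range of their own per panel). The α sums are 9.676 in shSmurf1 and 5.416 in shControl, the β sums 141.9 and 115.6, and the γ sums 195.6 and 170.9, and the points overlap in the γ panel alone.

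The count of called members moved with the fit, as did the count over all genes. Without shSmurf1 replicate 1, 2, 3 and 4 in turn, 6, 5, 11 and 7 members were higher, where 7.83%, 7.98%, 16.4% and 8.12% of all genes tested were. Without shControl replicate 1, 2, 3 and 4 in turn, 8, 5, 9 and 5 members were higher, where 7.77%, 7.64%, 8.07% and 7.88% of all genes tested were. The share of all genes lower in these fits was 9.84%, 9.78%, 17.3% and 10.5% for the shSmurf1 libraries and 9.94%, 9.72%, 9.97% and 9.86% for the shControl libraries, with 1 member lower, PCDHGB5, without shSmurf1 replicate 2 and 0 in the others. With all libraries, members higher numbered 11 with DESeq2 size factors (10.2% of all genes higher), 10 with DESeq2 (10.2%), 8 with limma-voom (10%), 8 with the replicate block (9.06%), 12 with the GC trend removed (12%) and 10 of 53 with no filter on low counts (4.87% higher and 5.71% lower).

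**Figure D5:**
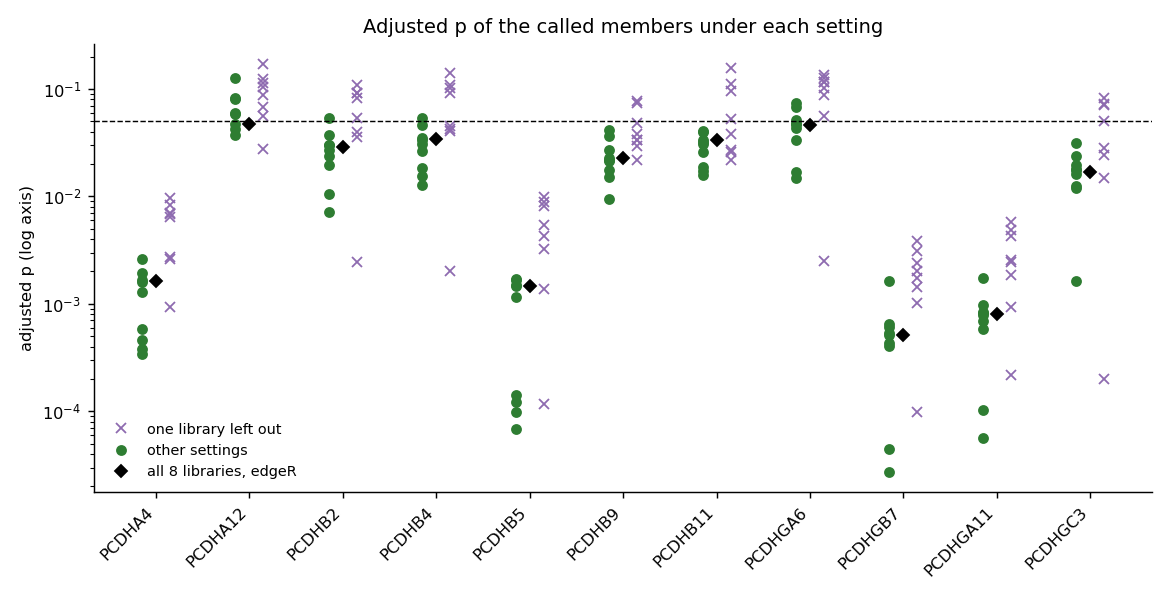
Adjusted p on a log axis for the 11 called members under the fit of all 8 libraries (black diamonds), under other tools, scalings, filters and corrections (green circles) and with each library left out in turn (purple crosses), with the threshold of 0.05 as a dashed line. PCDHA4, PCDHB5, PCDHGB7 and PCDHGA11 stay below the line at every point, and the other 7 cross it.

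Of 38 other protein-coding genes within 1 Mb of the clusters or between them, 32 were tested. Higher were 8 of them and 1, CYSTM1, was lower, where 10.3% of all genes tested were higher and 12.2% lower, and their log2 fold changes had a median of 0.08. TAF7, a subunit of transcription factor TFIID that lies between the β and the γ cluster, was at 191, 189, 201 and 185 CPM in shSmurf1 and at 178, 175, 174 and 172 CPM in shControl (log2 fold change 0.13 ± 0.048, edgeR adjusted p = 0.0476). PCDH1, a protocadherin outside the clusters, was the neighbour with the largest change, at 90.2 ± 8.89 CPM in shSmurf1 and 33.6 ± 1.16 CPM in shControl (1.43 ± 0.071, edgeR adjusted p = 3.36e-11). These genes are named after their values were seen. The count of higher neighbours depended on the fit: it was 4 with the replicate block, 5 with no filter on low counts, 10 without shSmurf1 replicate 3, where 16.4% of all genes tested were higher, and 3 to 5 without any other library, where 7.64% to 8.12% were.

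Genes of promoter choice, looping and silencing were described by the same test. Of 28 genes for CTCF, cohesin and its loaders, DNA methylation and heterochromatin, 0 were higher and 1 was lower, where 10.3% of all genes tested were higher and 12.2% lower. The lower one was STAG1, a cohesin subunit (54.9 ± 1.50 CPM in shSmurf1 and 65.4 ± 0.820 CPM in shControl, log2 fold change −0.25 ± 0.055, edgeR adjusted p = 0.00226). DESeq2 and limma-voom each called 0 of them higher and 2 lower. Of all genes tested, DESeq2 called 10.2% higher and 12.5% lower, and limma-voom 10% higher and 12.4% lower. At an unadjusted p under 0.05 in edgeR 1 was higher and 4 were lower, but the share of all genes at that threshold was not counted. CTCF itself was at 50.3, 51.7, 57.2 and 54.9 CPM in shSmurf1 and at 48.8, 50.7, 47.0 and 53.3 CPM in shControl, which overlap (0.10 ± 0.065, edgeR adjusted p = 0.302). HNRNPK (−0.08 ± 0.046) and RAD21, the cohesin subunit that is cleaved at anaphase (−0.09 ± 0.051), both abundant, did not pass. Both passed as lower without shSmurf1 replicate 3, HNRNPK at −0.10 (edgeR adjusted p = 0.0251) and RAD21 at −0.13 (edgeR adjusted p = 0.0074). In that fit 2 genes of the list were higher and 8 lower, where 16.4% of all genes tested were higher and 17.3% lower. With the GC trend removed 4 were lower, where 16% of all genes tested were.

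Among genes for proteins that bind, cut or signal from clustered protocadherins, 6 of 29 tested were higher (PTK2, WASF1, ABI2, NLGN2, PRKCA and MARCKS) and 2 lower (CYFIP2 and WASF2), where 10.3% of all genes tested were higher and 12.2% lower. CYFIP2, a subunit of the WAVE complex, which drives actin branching and can be recruited by protocadherin tails, was at 18.8, 18.5, 19.5 and 18.9 CPM in shSmurf1 and at 27.3, 31.2, 29.6 and 33.8 CPM in shControl (log2 fold change −0.69 ± 0.083, edgeR adjusted p = 5.36e-06). WASF1, another WAVE subunit, was higher (0.21 ± 0.069, edgeR adjusted p = 0.0317), though not without shSmurf1 replicate 1 or 4 or shControl replicate 1, 3 or 4 (0.0528 to 0.121). NLGN2, a neuroligin (0.32 ± 0.063, edgeR adjusted p = 0.000753), and MARCKS, an actin regulator at the membrane (0.29 ± 0.043, edgeR adjusted p = 5.07e-05), were higher with no overlap between the groups. RHOA (0.06 ± 0.049) and RAC1 (−0.03 ± 0.063), small GTPases of the actin cytoskeleton and the most highly expressed of those not past the test, had overlapping groups. Without shSmurf1 replicate 3, RAC1 passed as lower (log2 fold change −0.11, edgeR adjusted p = 0.0187). The lower genes numbered 4 with the GC trend removed, where 16% of all genes tested were lower, and 6 without shSmurf1 replicate 3, where 17.3% were.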

How the data were processed

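The deposited table holds whole-number read counts per gene, not normalized. The submitters' processing notes name CASAVA and fastp, the aligner HISAT2 2.0.5 and, for counting, featureCounts 1.5.0-p3; their build and gene models were not given in the sources used here. Per the labels' protocols, mRNA was captured on poly-T beads and copied from random primers, with no step that marks strand, so reads of antisense genes within the clusters cannot be told apart. All 58735 gene identifiers were found in GENCODE release 29 (GRCh38), which gave symbols, coordinates and exon bases.

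Genes were kept by filterByExpr with a minimum count of 10 (15647 genes), scaled by TMM and tested with edgeR version 4.0.16 (R version 4.3.3) by the quasi-likelihood F test, two-sided, without covariates, with Benjamini-Hochberg adjustment over all genes tested. SEs were taken as the log2 fold change over the square root of F. Other fits used DESeq2 version 1.42.0, limma-voom (limma version 3.58.1), DESeq2 size factors, library totals, no filter, at least 4 libraries with a CPM of 1, a replicate block, removal of each library's trend with GC content, and each library left out in turn. No 2 replicates agreed within sampling noise (chi-square per gene 2.6 to 13.31). The test was also run on simulated counts with known changes, and the outcome is not given here. The simulation used the same dispersion for every gene and had no library apart from the rest, whereas shSmurf1 replicate 3 stood apart in the data. The members, lists and tests were chosen with earlier results of these data known. Named genes were all called members, up to 4 members per cluster with the highest level per kilobase that did not pass, up to 4 called and 2 uncalled genes of each list, and SMURF1; others were named after their values were seen.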

Additional observations from a re-analysis of the deposited data

Results flagged for a closer look

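Among 72 groups of 4 libraries examined for a library far from the rest, 3 held one, where chance alone gives about 1 in 20. PCDHB10 was at 12.23 CPM in shSmurf1 replicate 2, with the other shSmurf1 libraries between 8.711 and 8.941 CPM. PCDHGB1 was at 6.912 CPM in shControl replicate 3, against 4.785 to 4.893 CPM in the other shControl libraries. PCDHA2 was at 0.6227 CPM in shControl replicate 3, from 10 counts, against 0.1193 to 0.2022 CPM in the other shControl libraries. None of the 3 genes was called, and PCDHA2 was not tested.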

How the results depend on the processing

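PCDHA4, PCDHB5, PCDHGB7 and PCDHGA11 kept their direction and their call in all 17 other fits. Log2 fold changes of the other called members stayed above 0 in every fit in which they were tested. Higher α genes numbered 1 with DESeq2, limma-voom, a CPM of 1 in 4 libraries, the replicate block and the replicate block with the GC trend removed, and 1 to 2 with a library left out. Higher β genes numbered 1 to 5 and higher γ genes 2 to 4 with a library left out. In the fits with a library left out, 7.64% to 16.4% of all genes tested were higher and 9.72% to 17.3% lower, against 10.3% and 12.2% with all libraries. Lower were 12.3% of all genes tested with DESeq2 size factors, 12.5% with DESeq2 and 12.4% with limma-voom. With the GC trend removed 16% were lower, and 15.8% with the replicate block as well. With no filter 4.87% were higher and 5.71% lower, with the replicate block 9.06% and 11.3%, and with library totals alone 11.9% and 10.7%. Lower γ genes, 0 with all libraries, were 1 with the GC trend removed, with or without the replicate block, and 0 to 1 with a library left out. Lower regulators, 1 with all libraries, were 2 with DESeq2 size factors, DESeq2 or limma-voom, 4 with the GC trend removed, 3 with the replicate block as well, and 1 to 8 with a library left out, where higher ones were 0 to 2. Lower partners were 4 with the GC trend removed, with or without the block, and 2 to 6 with a library left out. Higher neighbours were 5 with no filter, 4 with the replicate block and 3 to 10 with a library left out; lower ones were 0 with library totals alone, no filter or the replicate block and 0 to 2 with a library left out. Settings for the regulators, partners and neighbours were chosen after seeing the data. Neither called with all libraries, PCDHGB2 reversed without shControl replicate 4, with log2 fold changes of −0.0453 to 0.3372 over the fits that left out a library, and RAC1 without shSmurf1 replicate 4 (−0.1129 to 0.0099). At −0.1129, without shSmurf1 replicate 3, RAC1 was called lower, as were HNRNPK and RAD21. Without division by length, PCDHA12 held 10.84% of the α level in shSmurf1 and 9.641% in shControl, against 23.07% and 20.36% per kilobase, and PCDHB5 held 23.84% of the β level in shSmurf1 and 22.29% in shControl, against 28.17% and 26.35%; the change is the gene lengths' own. The cause of the other shifts was not tested. Same-numbered libraries of the groups correlated at −0.087 to 0.04, so the numbers were not taken as pairs, and the replicate block left 8 members higher and 0 lower. Too few counts for the test were found for 11 of 15 α, 1 of 16 β and 4 of 22 γ genes; the part of depth in this was not tested.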
